A study of Rattus norvegicus with 24 samples.

Results

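Peripheral blood mononuclear cells (PBMCs) of arthritic rats that had not yet been treated were compared with those of healthy rats. The comparison used the 4 arrays whose titles place them at time zero, 2 from rats with collagen-induced arthritis (CIA_B) and 2 from healthy rats (NOCIA_B), of 24 arrays in the whole study. Every probe set measured on the arrays was eligible. They were Affymetrix rat whole-genome expression arrays, and each value is a log2 level on which a difference of 1 is a 2-fold change.

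All rats were female Wistar rats, and each array was taken to hold the PBMCs of 1 rat. The cells were isolated on a Ficoll gradient from blood drawn under deep general anaesthesia. The CIA_B rats had been injected at the tail base with bovine type II collagen in complete Freund's adjuvant and boosted with collagen in incomplete adjuvant. The NOCIA_B rats were healthy and untreated. Collagen and adjuvant were given together, so arthritis and the adjuvant cannot be told apart in this comparison. Baseline blood was drawn ahead of any therapy, and therapy began at onset, which the methods place on day 18 after immunization at an arthritis score of at least 2. Age, the hour of sampling and the anaesthetic used for these 4 rats are not stated in the sources at hand. Other rats were sampled 1 hour (E) or 34 days (A) into the study. They were healthy (NOCIA) or arthritic, and the arthritic ones received needle stimulation (MS), methotrexate (MTX), saline injection (PLA) or no therapy but another anaesthetic, isoflurane, at sampling (ANE).

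Collagen-induced arthritis is a model of rheumatoid arthritis in which T cells and antibodies raised against collagen attack the joint. PBMCs are the lymphocytes and monocytes that travel between lymphoid organs and inflamed tissue, and the gradient removes most granulocytes and red cells. Blood cells of arthritic animals are therefore commonly searched for cytokines and chemokines, changes in cell composition and the stress hormone response. Transcripts of cells outside the blood are not expected in such a preparation.

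The median correlation with the other arrays was 0.967 and 0.963 in NOCIA_B, below that of 15 and 17 of the other arrays, and 0.98 and 0.975 in CIA_B, below that of 0 and 6. The medians of the kept probe sets lay between 6.75 and 6.82. Between the 2 arrays of a group, log2 values differed with a standard deviation of 0.230 for NOCIA_B and 0.286 for CIA_B, and from 0.267 to 0.876 in the other groups. Another 4 arrays, all of needle-stimulated, saline-injected or anaesthetic control rats, stood apart, with median correlations from 0.845 to 0.956 and the highest platelet marker levels. In the baseline contrast they enter only the pooled spread of the fit over all 24 arrays, while ANE_E replicate 1 and PLA_E replicate 2 are also 2 of the 4 arthritic arrays of the 1-hour contrast. Counts that change without the 4 are given. The 3′ to 5′ difference of the control gene Actb was 0.56 and 0.84 in NOCIA_B and 0.54 and 0.59 in CIA_B. NOCIA_B replicate 2 had the highest such difference of the 24 arrays for Actb (the others reached 0.68) and for Gapdh (0.20, the others up to 0.16), and the part of RNA quality in the results was not tested. Markers of T cells (20 of 20 genes on the array), B cells (12 of 12), killer cells (20 of 20) and monocytes (15 of 17) passed the filter on dim probe sets. So did 12 of 13 neutrophil markers, although granulocytes are removed by the gradient.

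Few differences between the groups could be called once all 24 arrays set the scale of the error. With 2 arrays a group, a lack of calls does not show a lack of difference. A single probe set of 20690, for the kinase gene Sik1, passed an adjusted p of 0.05 in limma (0.00483%). At an unadjusted p of 0.05, 789 probe sets passed, 498 higher and 291 lower in CIA_B. The study's own thresholds, an unadjusted p below 0.05 and a change of more than 2-fold, were met by 87 probe sets that lay higher in CIA_B (0.42%) and 66 that lay lower (0.319%), or by 94 in all when NOCIA_B replicate 2 was left out. The median difference over all probe sets was 0.01.

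The lower group held the larger differences. Probe sets past the study's thresholds lay higher by 1.00 to 2.36 (median 1.16) and lower by 1.00 to 4.85 (median 1.43). In all 153 of them the groups did not overlap. Non-overlap was common, however, at 28.6% of all probe sets for higher and 23.1% for lower values in CIA_B. The 153 covered 90 named genes, 55 higher and 35 lower, and 56 (36.6%) carried no gene symbol or several, against 26.37% of all probe sets kept.

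The number of calls depended on which arrays set the error. A fit of the 4 baseline arrays alone called 477 probe sets higher (2.31%) and 282 lower (1.36%), including 147 of the 153. That fit has only the spread within both pairs to go by. The baseline pairs were closer to each other than most pairs of the study. Called probe sets numbered 1020 with array weights and 258 when the 4 arrays that stood apart were left out. The weights were equal for both arrays of a group, so they followed the closeness of a pair, not the quality of single arrays. They were 2.17 in NOCIA_B and 2.45 in CIA_B, within 0.19 to 2.60 over all groups. In the 4-array fit, the weighted fit and the fit without the 4 arrays that stood apart, 242 probe sets were called every time. Of these 184 were higher and 58 lower, and 93 were among the 153. All 3 fits use the same 4 baseline arrays, so this is not the agreement of separate checks. Adjusted p-values below come from the fit over all 24 arrays except where the 4-array fit is named. With 2 arrays against 2, an exact two-sided permutation test of a single gene cannot give a p below 0.333.

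**Figure D1:**
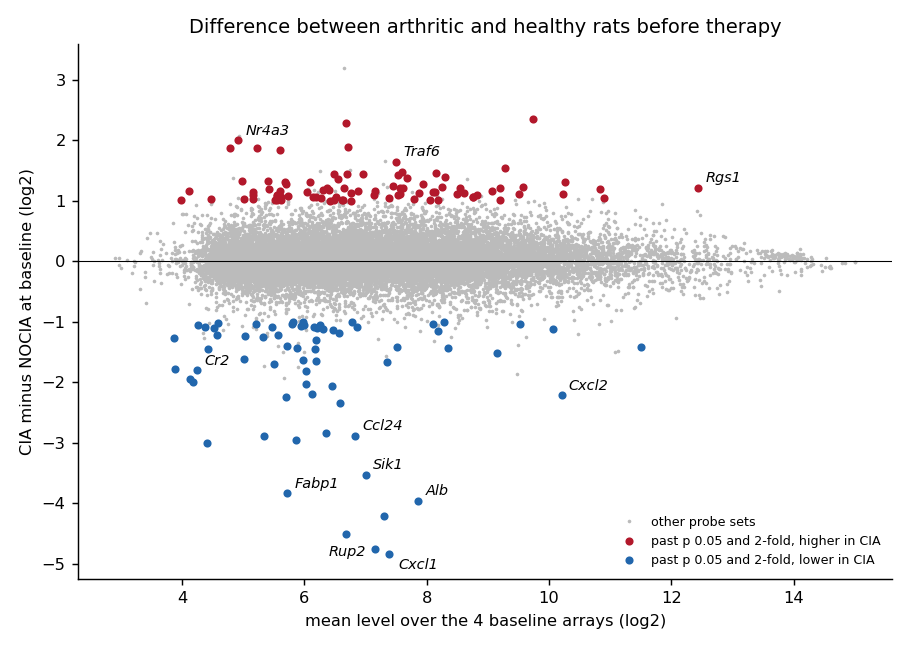
Difference between CIA_B and NOCIA_B (vertical axis, log2) against the mean level over the 4 baseline arrays (horizontal axis, log2), 1 point per probe set kept, with the probe sets past the study's thresholds in colour. The lower side reaches 4.85 and the higher side 2.36, and Sik1, at -3.53, is the only probe set called in the fit over all arrays.

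Sik1 encodes a salt-inducible kinase that phosphorylates the coactivators of the cAMP-responsive factor CREB and is itself induced by cAMP. At the called probe set, the dimmer of 2, its level was 8.74 and 8.81 in the NOCIA_B arrays and 5.31 and 5.18 in the CIA_B arrays. The other 22 arrays, healthy ones included, lay between 4.91 and 5.61. Thus the NOCIA_B arrays, not the CIA_B arrays, were the unusual ones for this probe set. Sik1 fell by 3.53 ± 0.20 (SE, n = 2 arrays a group, as for every SE below), with an adjusted p of 1.57e-07 in limma.

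The same gene gave another picture at its other probe set. The brighter probe set lay at 9.35 and 9.39 in NOCIA_B and differed by -0.20 ± 0.32. Its range over the other 22 arrays was 7.51 to 9.39, which reaches the NOCIA_B values. Arthritic and healthy rats differed at the dimmer probe set by 0.00 ± 0.17 at 34 days and by 0.01 ± 0.17 at 1 hour.

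Neutrophil and eosinophil chemokines lay lower in the arthritic rats before therapy. Cxcl1, a chemokine that draws neutrophils through the receptor Cxcr2, was at 10.06 and 9.57 in NOCIA_B and at 5.86 and 4.07 in CIA_B. The gap between the groups exceeded the gap within either. The difference of -4.85 ± 1.02 was the largest in size of any named gene. For Cxcl1 the adjusted p was 0.556 in the fit over all arrays and 0.00698 in the 4-array fit. Cxcl2, its close relative, was at 11.44 and 11.19 in NOCIA_B and at 9.004 and 9.19 in CIA_B, a difference of -2.22 ± 0.88. For Cxcl2 the adjusted p was 0.9998 in the fit over all arrays and 0.00117 in the 4-array fit. Ccl24, which attracts eosinophils, was at 8.39 and 8.15 against 5.69 and 5.08, a difference of -2.89 ± 1.05. In all 3 genes the 4 later healthy arrays lay above both CIA_B arrays. Cxcl1 was at 9.65 and 10.90 in NOCIA_E and 8.24 and 8.03 in NOCIA_A. Cxcl2 was at 11.91 and 11.77 in NOCIA_E and 11.60 and 10.75 in NOCIA_A. Ccl24 was at 7.42 and 9.80 in NOCIA_E but at 6.71 and 6.35 in NOCIA_A, nearer to CIA_B than to NOCIA_B.

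Other products of activated monocytes pointed the same way without passing the study's thresholds. Ccl2, which recruits monocytes, was at 6.81 and 6.45 in NOCIA_B and 4.90 and 4.49 in CIA_B (-1.93 ± 0.94). Ptgs2, the inducible cyclooxygenase, was at 6.51 and 6.28 against 5.05 and 4.75 (-1.50 ± 0.95). Il1b, the precursor of interleukin 1 beta, was at 10.21 and 10.17 against 8.92 and 8.69 (-1.38 ± 1.04). In these genes the 2 arrays of each group lay close together, and the SE was set by the other groups of the study. Osm (oncostatin M) was at 9.03 and 9.04 against 7.64 and 7.91 (-1.26 ± 0.67). Tnf, the target of several arthritis drugs, was at 5.50 and 5.81 against 5.28 and 5.27, a difference of -0.38 ± 0.75 with no call in the 4-array fit either (adjusted p = 0.201).

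Over the fixed list of 36 inflammatory cytokines and NF-kB targets, 30 genes were measured. Values in CIA_B lay below both NOCIA_B values in 17 of them and above in 4, with a median difference of -0.19, against 22.9%, 29.6% and 0.01 over all 11057 genes. In the 4-array fit 7 were called lower and 0 higher, against 1.34% and 2.01% of all genes. The 7 were Cxcl1, Cxcl2, Ccl2, Ptgs2, Il1b, Osm and the chemokine-binding receptor Ccrl2 (-0.71 ± 0.87). A list of 46 chemokines and their receptors, drawn up after values were seen, had 36 measured genes, 16 below and 7 above, with a median of -0.08. It held Cxcr3, a receptor of activated T cells, at 9.01 and 9.13 in NOCIA_B and 7.60 and 7.67 in CIA_B (-1.44 ± 0.41). Among arthritis mediators and drug targets (23 measured) 8 genes lay above and 8 below. Its median of 0.13 became 0.00 without CIA_B replicate 2. Ifng, the T cell and killer cell cytokine, was at 5.01 and 4.99 against 5.79 and 5.90 (0.85 ± 0.90).

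A group of liver transcripts was present in the healthy baseline rats and lower in the arthritic baseline rats. Albumin (Alb) was at 9.82 and 9.87 in NOCIA_B and 6.08 and 5.68 in CIA_B, a difference of -3.96 ± 1.13. For Alb the adjusted p was 0.869 in the fit over all arrays and 0.000146 in the 4-array fit. Rup2, a urinary protein gene, was at 9.52 and 9.55 against 5.09 and 4.46 (-4.75 ± 1.08). Fabp1, the liver fatty acid-binding protein, was at 7.57 and 7.70 against 3.98 and 3.63 (-3.83 ± 1.17). The NOCIA_B arrays lay close together in all 3 genes. The 4 later healthy arrays lay below both NOCIA_B arrays in these genes: Alb was at 5.82 and 7.18 in NOCIA_E and 4.99 and 4.31 in NOCIA_A. NOCIA_E replicate 2 was the one later healthy array above both CIA_B arrays for Alb, and likewise for Rup2 (6.85), while for Fabp1 all 4 lay above them.

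Other genes among the 20 lowest that are known as liver products encode secreted proteins and enzymes. Apolipoproteins Apoc1 (7.27 and 7.40 against 4.60 and 4.15, -2.95 ± 0.64) and Apoa2 (7.01 and 6.86 against 5.15 and 5.09, -1.82 ± 0.60) carry lipids in plasma. Carriers of other ligands were Gc, the vitamin D-binding protein (7.17 and 7.29 against 5.35 and 4.72, -2.20 ± 0.71), and Ttr, which binds thyroid hormone (8.22 and 8.15 against 6.48 and 6.56, -1.66 ± 0.60). Hpd, an enzyme of tyrosine breakdown, was at 6.57 and 7.01 against 4.19 and 3.60 (-2.89 ± 0.82). The alcohol dehydrogenase Adh1c lay at 7.76 and 7.81 against 5.28 and 4.60 (-2.85 ± 0.85), while its other probe set differed by 0.03. Rgn, a calcium-binding protein of liver (-3.00 ± 0.82), the sulfotransferase Sult1b1 (-1.999 ± 0.54) and the cytochrome Cyp2c6v1 (-1.95 ± 0.82) were lower too. In all these genes the 4 later healthy arrays lay below both NOCIA_B arrays. Slc27a2, which activates and imports fatty acids, was an exception. It was at 7.54 and 7.98 in NOCIA_B and 5.52 and 5.31 in CIA_B (-2.35 ± 0.83), but at 8.79 and 5.69 in NOCIA_E and 6.78 and 7.34 in NOCIA_A, above both CIA_B arrays in each case.

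The whole Liver list had 28 genes, of which 25 were on the array and 16 passed the filter on dim probe sets. Of those 16, 15 lay lower in CIA_B without overlap, 11 of them past the study's thresholds, and 1, the urea cycle enzyme Ass1, lay higher (0.85 ± 0.54). Over all 25, with no filter, 21 lay lower and 4 higher, with a median of -0.79. The mean centred level of the 16 genes was 1.27 and 1.40 in NOCIA_B, -0.38 and -0.54 in CIA_B, -0.55 and 0.07 in NOCIA_E and -0.38 and -0.56 in NOCIA_A. Of the 20 arrays outside the comparison, 19 lay below both NOCIA_B arrays and 1, at 3.004, above. That 1 array was of an arthritic group. The list's median difference between arthritis and health was 1.09 at 1 hour and 0.26 at 34 days, opposite in sign to that at baseline. The 1-hour median includes ANE_E replicate 1 and PLA_E replicate 2, both among the arrays that stood apart. It was not recomputed without them. The filter let 1 of the 16, the retinol carrier Rbp4, through by its baseline arrays only. That was also so of the named probe sets of Rgn, Cyp2c6v1 and Cr2, and of 9 of the 66 lower and 1 of the 87 higher probe sets, against 115 of all 20690. Such probe sets were kept because a baseline group was high, and the counts over genes that passed are a description only. Albumin is a product of hepatocytes, and the part of RNA from liver cells in these differences was not tested.

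**Figure D2:**
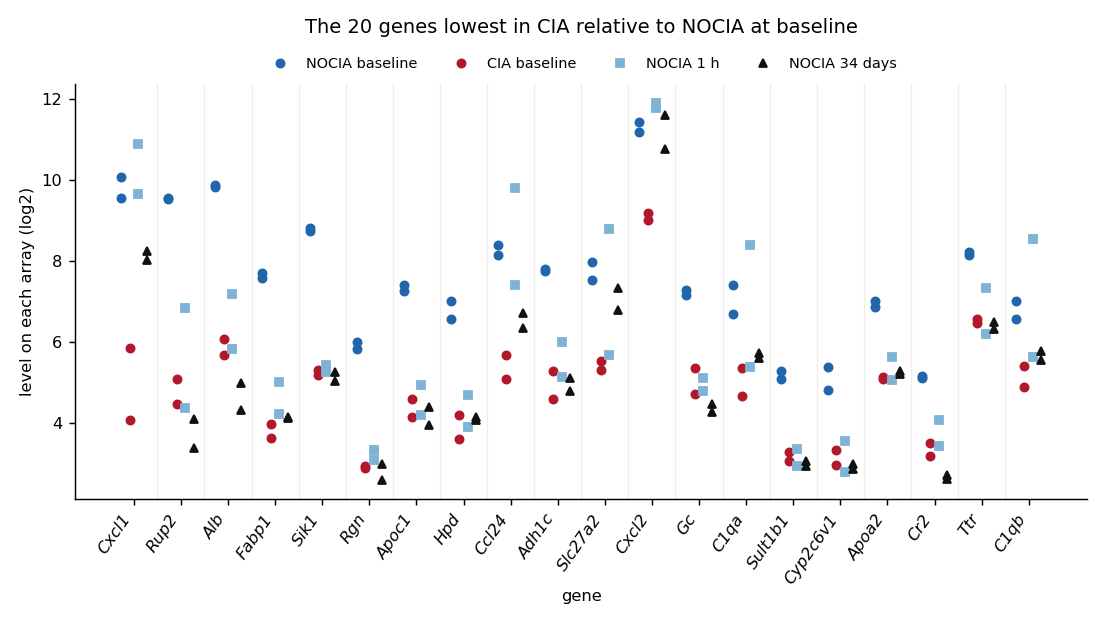
Level on each array (vertical axis, log2) of the 20 named genes lowest in CIA_B (horizontal axis), with points for the NOCIA_B, CIA_B, NOCIA_E and NOCIA_A arrays. The 4 later healthy arrays lie below both NOCIA_B arrays for Alb, Rup2, Fabp1 and Sik1, and above both CIA_B arrays for Cxcl1, Cxcl2, Ccl24 and Slc27a2.

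Complement C1q, which is made by macrophages and binds immune complexes, also lay lower. C1qa was at 7.40 and 6.69 in NOCIA_B and 5.37 and 4.67 in CIA_B (-2.02 ± 0.71), C1qb at 7.01 and 6.56 against 5.42 and 4.89 (-1.63 ± 0.76), and C1qc at 6.89 and 6.78 against 5.96 and 5.10 (-1.31 ± 0.61). All 3 chains differed by more than the spread within either pair. The later healthy arrays were spread around these values, with C1qa at 5.40 and 8.38 in NOCIA_E. Of 14 measured complement genes 8 lay below and 2 above without overlap (median -0.30), against 22.9% and 29.6% of all genes. The regulator Cd55, which protects cells from complement, was the one called higher in the 4-array fit, at 8.09 and 8.10 against 8.87 and 8.98 (0.83 ± 0.39). In a list of 18 tissue macrophage markers, added after values were seen, 6 of 11 measured genes lay below and 1 above, with a median of -0.55. That median was -0.36 without NOCIA_B replicate 1 and -0.83 without CIA_B replicate 1. The list's mean centred level was 0.28 and 0.20 in NOCIA_B, -0.30 and -0.55 in CIA_B and -0.48 and 0.82 in NOCIA_E. The part of macrophages in the C1q difference was not tested.

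B cell genes lay modestly lower in the arthritic rats, and fewer B cells cannot be told apart from less of these RNAs per cell in a bulk sample. None of the 12 measured markers passed the study's thresholds at its brightest probe set. Even so, 10 of 12 lay below without overlap and 0 above, against 22.9% and 29.6% of all genes, and the median was -0.42. Ms4a1 (CD20) was at 10.50 and 10.46 in NOCIA_B and 9.89 and 9.58 in CIA_B (-0.74 ± 0.41), and Cd79b, a signalling chain of the B cell receptor, at 10.16 and 9.97 against 9.22 and 9.45 (-0.73 ± 0.36). Pou2af1, a coactivator of B cells, was at 9.82 and 9.85 against 9.20 and 9.04 (-0.72 ± 0.28), and the adaptor Bank1 at 8.81 and 8.96 against 8.23 and 8.25 (-0.65 ± 0.27). These 4 and Cr2 were the 5 markers called lower in the 4-array fit, which called 1.34% of all genes lower.

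Cr2, the B cell receptor for complement fragments, differed by probe set. At its dimmest probe set it was at 5.16 and 5.12 in NOCIA_B and 3.51 and 3.18 in CIA_B, a difference of -1.80 ± 0.34. At its 4 other probe sets the difference ran from -0.93 to -0.62. The direction was the same at every probe set of the gene. The mean centred level of the B cell list was 0.58 and 0.63 in NOCIA_B, 0.15 and 0.19 in CIA_B, 0.19 and 0.15 in NOCIA_E and -0.47 and -0.43 in NOCIA_A. The 1-hour healthy arrays thus sat with the arthritic baseline arrays, and the 34-day healthy arrays below them.

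Other blood cell types showed no shift of that size. T cell markers (20 measured) had 4 genes above and 4 below, against 29.6% and 22.9% of all genes, and a median of -0.01. NK and cytotoxic cell markers (20) had 9 above and 5 below, with a median of 0.06, but single genes diverged. The chemokine Xcl1 was at 8.10 and 8.15 in NOCIA_B and 6.93 and 6.17 in CIA_B (-1.57 ± 0.75), and the activating receptor Klrk1 (NKG2D) at 9.68 and 9.62 against 8.83 and 8.84 (-0.82 ± 0.52). The killer cell receptor Klre1 ran the other way, at 8.55 and 8.16 against 9.43 and 9.42 (1.07 ± 0.66). These 3 were called in the 4-array fit.

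Myeloid markers likewise split. Monocyte markers (15 measured) had 6 above and 1 below, against 29.6% and 22.9% of all genes. Their median of 0.10 became -0.07 without CIA_B replicate 2. Neutrophil markers (12) had 5 above and 3 below, with a median of 0.02. S100a8 and S100a9, the calprotectin subunits, differed by 0.14 ± 0.96 and -0.10 ± 0.84, and the decoy interleukin 1 receptor Il1r2 was at 6.64 and 6.33 in NOCIA_B and 8.001 and 8.30 in CIA_B (1.67 ± 1.35). Dendritic cell markers (7) had a median of -0.20 and plasma cell markers (6) one of 0.06. The basophil protease Mcpt8, at 4.47 and 4.76 against 5.98 and 5.43 (1.09 ± 0.48), was the only gene of the 8 measured mast cell and basophil markers past the study's thresholds.

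Markers of cells that should be removed or are not part of blood were also counted. Platelet markers (20 measured) had 13 below and 2 above, against 22.9% and 29.6% of all genes. Their median of -0.28 was -0.17 without CIA_B replicate 2. Their mean centred level was -0.35 and -0.17 in NOCIA_B and -0.43 and -0.65 in CIA_B. Erythroid markers (14) had a median of -0.30 that became 0.40 without CIA_B replicate 2, and the CIA_B arrays themselves lay at 0.48 and -0.90. Endothelial markers (6) had a median of -0.34, and fibroblast and muscle markers (6) one of -0.18.

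Differences on the higher side were smaller than those on the lower side. Nr4a3, an orphan nuclear receptor of the immediate early kind, was at 3.94 and 3.90 in NOCIA_B and 5.86 and 5.98 in CIA_B. Its difference was 2.00 ± 0.50, with an adjusted p of 0.869 in the fit over all arrays and 0.000895 in the 4-array fit. The 2 other probe sets of Nr4a3, both brighter, differed by 0.45 ± 0.40 and 0.67 ± 0.29. Traf6, a ubiquitin ligase that carries signals from Toll-like and interleukin 1 receptors, was at 6.80 and 6.56 against 8.33 and 8.32 (1.65 ± 0.43). For Traf6 the adjusted p was 0.869 in the fit over all arrays and 0.00305 in the 4-array fit. Jun, a subunit of the AP-1 factor, was at 8.94 and 8.99 against 10.39 and 9.99 (1.22 ± 0.49). At the named probe sets of Nr4a3 and Traf6 the gap between the groups exceeded the gap within either. Rgs1, a brake on G protein signals from chemokine receptors, was at 11.86 and 11.80 against 13.02 and 13.07 (1.21 ± 0.42).

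Another 6 of the 20 genes with the highest differences are described next. Btg3, an antiproliferative protein, was at 6.86 and 6.87 in NOCIA_B and 8.39 and 8.28 in CIA_B (1.47 ± 0.45). Rybp, a partner of the Polycomb complex, was at 6.84 and 6.80 against 8.15 and 8.35 (1.43 ± 0.41). The splicing-related genes Cwc25 (5.73 and 5.79 against 7.18 and 7.22, 1.44 ± 0.45) and Rbm48 (6.13 and 5.63 against 7.44 and 7.02, 1.35 ± 0.39) lay higher by similar amounts. Cirbp, an RNA-binding protein induced by mild cold, was at 8.56 and 8.61 against 9.84 and 9.77 (1.22 ± 0.32). Dctn6, a dynactin subunit, was at 4.75 and 4.72 against 5.95 and 6.18 (1.33 ± 0.23), and its adjusted p of 0.229 over all 24 arrays was far from the threshold.

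The other named genes of the higher side were Rasgef1b (1.54), Klf9 (1.46), Mbip (1.45), Abhd10 (1.40), Nom1 (1.38), Klhdc2 (1.31), Ldlrad4 (1.31), Cdadc1 (1.27), Nr1d2 (1.23) and LOC100911534 (1.22). All 40 named genes, 20 in each direction, were called in the 4-array fit, and 32 also in the weighted fit and without the 4 arrays that stood apart. The genes were chosen for large differences on the same baseline arrays. That 4-array fit called 147 of the 153 probe sets past the study's thresholds, so these counts are a description and no separate support. For 17 of the 40 the array carries further probe sets, 31 in all. Of these 30 differed in the same direction, 4 passed the study's thresholds and 8 differed by less than 0.3 in size, among them those of Dctn6 (0.18) and Adh1c. A gene's largest difference is therefore often that of 1 of its probe sets.

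**Figure D3:**
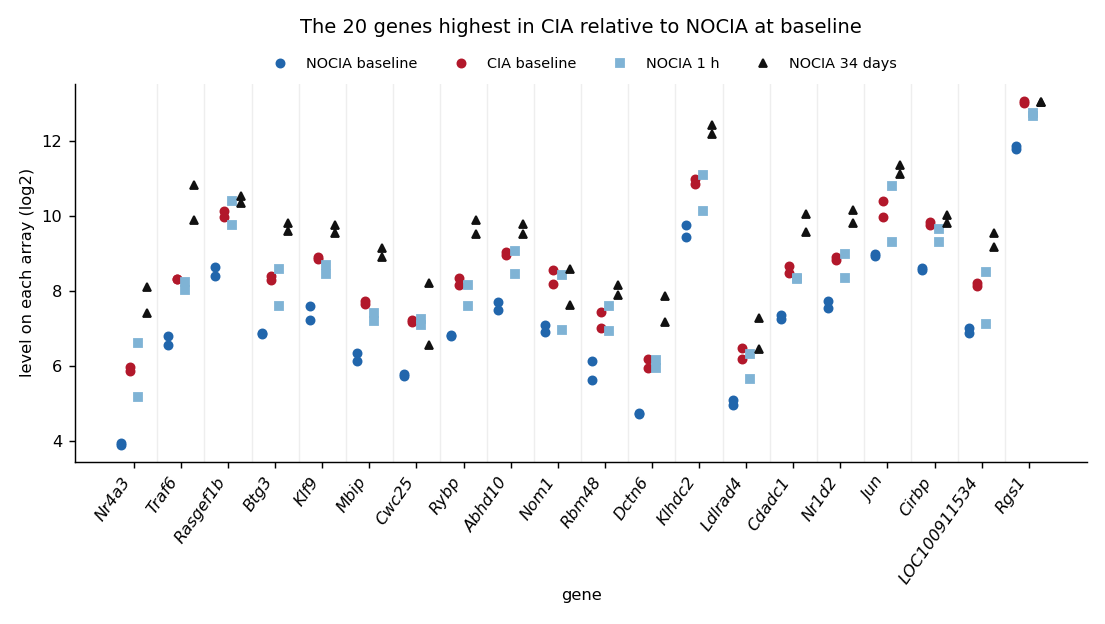
Level on each array (vertical axis, log2) of the 20 named genes highest in CIA_B against NOCIA_B (horizontal axis), with points for the NOCIA_B, CIA_B, NOCIA_E and NOCIA_A arrays. The NOCIA_A arrays lie above both CIA_B arrays for 15 of the 20 genes, such as Traf6 at 10.82 and 9.88 against 8.33 and 8.32.

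Most genes of the glucocorticoid response lay higher in the arthritic rats at baseline. Adrenal glucocorticoids reach blood cells during stress and inflammation and induce a known set of genes through their receptor. Of 14 measured genes of that list 10 lay above and 3 below (median 0.49), against 29.6% and 22.9% of all genes, and the median was 0.25 without CIA_B replicate 1. Klf9, a factor that this hormone induces, was at 7.61 and 7.24 in NOCIA_B and 8.91 and 8.87 in CIA_B at its named probe set (1.46 ± 0.50), and differed by 0.95 ± 0.41 at the brighter one that the list uses. Errfi1, a feedback inhibitor of growth factor receptors, was at 6.24 and 6.30 against 7.29 and 7.25 (1.00 ± 0.39), and Sgk1, a kinase, at 8.64 and 8.78 against 9.51 and 9.52 (0.81 ± 0.42). The chaperone Fkbp5 was at 8.35 and 8.29 against 9.23 and 8.92 (0.76 ± 0.40). The 3 genes that lay below reached -0.58. The 4-array fit called 5 genes of the list higher, against 2.01% of all genes. The list's mean centred level was -0.43 and -0.45 in NOCIA_B and 0.06 and -0.03 in CIA_B. It was -0.10 and 0.17 in NOCIA_E and 0.32 and 0.27 in NOCIA_A. At 34 days the median difference of the list was -0.30, opposite in sign to that at baseline.

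Clock genes also leaned higher in the arthritic rats at baseline. The circadian clock is a feedback loop of transcription factors that runs in most cells, and its output in blood follows the hour of sampling, which the sources do not state. Of 18 measured genes 12 lay above and 3 below (median 0.30), against 29.6% and 22.9% of all genes. None passed the study's thresholds at its brightest probe set. Nr1d2, a repressor of the loop, was at 7.54 and 7.72 in NOCIA_B and 8.89 and 8.84 in CIA_B at its named probe set (1.23 ± 0.38). Per3 was at 5.95 and 5.62 against 6.62 and 6.41 (0.73 ± 0.25), and the output factor Tef at 7.01 and 7.03 against 7.32 and 7.65 (0.47 ± 0.19). The list's median difference at 34 days was -0.38, opposite in sign.

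Signal-induced genes were divided. Among 25 measured immediate early genes 10 lay above and 9 below (median 0.07), against 29.6% and 22.9% of all genes. Jun lay higher, while Fos, its partner in AP-1, was at 12.67 and 12.43 in NOCIA_B and 11.80 and 11.43 in CIA_B (-0.94 ± 0.50). Egr1 was at 10.91 and 10.87 against 9.68 and 10.15 (-0.97 ± 0.43), and Fosl2 at 5.89 and 6.31 against 6.74 and 6.91 (0.73 ± 0.33). The cAMP response and Sik family list (20 measured) had 7 above and 7 below, with a median of 0.07 that became -0.12 without NOCIA_B replicate 1. Crem, whose short form represses cAMP-responsive genes, was at 8.43 and 8.13 against 9.39 and 9.36 (1.10 ± 0.40). Heat shock and cold-inducible genes (15 measured) had 6 above and 7 below. The cochaperone Dnajb1 was at 8.72 and 8.52 against 9.42 and 9.49 (0.84 ± 0.22) and cold-inducible Rbm3 at 12.22 and 11.96 against 12.74 and 12.97 (0.77 ± 0.40), while Hsph1 was at 8.73 and 8.86 against 8.02 and 7.91 (-0.83 ± 0.30).

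Cell cycle genes lay lower in part. Of 33 measured genes 16 lay below and 3 above, against 22.9% and 29.6% of all genes. The list's median of -0.22 was -0.36 without CIA_B replicate 1 and -0.11 without CIA_B replicate 2. Cyclin A (Ccna2) was at 5.16 and 4.72 in NOCIA_B and 3.71 and 3.79 in CIA_B (-1.19 ± 0.72), the topoisomerase Top2a at 7.01 and 6.93 against 5.97 and 6.18 (-0.90 ± 0.50), and cyclin B2 (Ccnb2) at 7.60 and 7.62 against 6.84 and 6.83 (-0.78 ± 0.32). The DNA clamp Pcna (0.64 ± 0.40) and the kinase subunit Cks2 ran the other way. Cks2 was at 8.06 and 8.09 in NOCIA_B, 8.94 and 8.81 in CIA_B and 11.55 and 10.87 in NOCIA_A, so its NOCIA_B arrays were again the low ones.

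Sensing and interferon genes showed small medians. The interferon-stimulated list (29 measured) had 10 below and 1 above, against 22.9% and 29.6% of all genes. Its median of -0.13 became 0.01 without CIA_B replicate 1. Irf7, a factor that amplifies the interferon response, was at 11.02 and 11.12 in NOCIA_B and 10.13 and 9.61 in CIA_B (-1.20 ± 0.67). Toll-like receptors and adaptors (13) had 3 above and 4 below. In that list Traf6 differed by 0.94 at its brightest probe set, and Tlr8, a receptor for RNA, was at 9.15 and 9.08 against 8.41 and 8.55 (-0.63 ± 0.70). MHC class II genes (8) had 2 above and 1 below, with a median of 0.13 that became -0.06 without CIA_B replicate 2.

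Lists of protein synthesis and energy metabolism had small positive medians. Of 45 measured cytosolic ribosomal protein genes, 45 had a positive difference and 34 lay above without overlap, 0 below (median 0.10, from 0.02 to 0.62). Over all genes 29.6% lay above and 22.9% below. Respiratory chain genes had 43 of 73 above and 5 below (median 0.15, from -0.43 to 0.45), mitochondrial ribosomal proteins 37 of 73 and 12 (0.14, from -0.39 to 0.67), splicing factors 28 of 48 and 6 (0.19) and proteasome subunits 17 of 44 and 4 (0.10). None of these genes passed the study's thresholds. The median of the cytosolic ribosomal genes was 0.06 under quantile normalization and also without CIA_B replicate 2.

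The remaining lists had medians between -0.07 and 0.13. All genes lay above in 29.6% and below in 22.9%, and 0 or 1 gene of each list below except InflGO and rwGO passed the study's thresholds. Hypoxia and glycolysis (20 measured) had 5 above and 5 below, lipid metabolism and PPAR targets (20) 7 and 4, adenosine receptors and enzymes (13) 3 and 4, p53 targets and apoptosis (18) 9 and 4, and JAK-STAT feedback (15) 4 and 5. The p53 list thus lay above in 50.0% of its genes. In the study's Gene Ontology lists more genes lay below than above, with 108 (34.8%) below and 74 above of 310 genes in InflGO (inflammation), 135 (31.5%) and 96 of 428 in rwGO (response to wounding) and 72 (32.1%) and 41 of 224 in whGO (wound healing). Their medians were -0.07, -0.05 and -0.07.

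**Figure D4:**
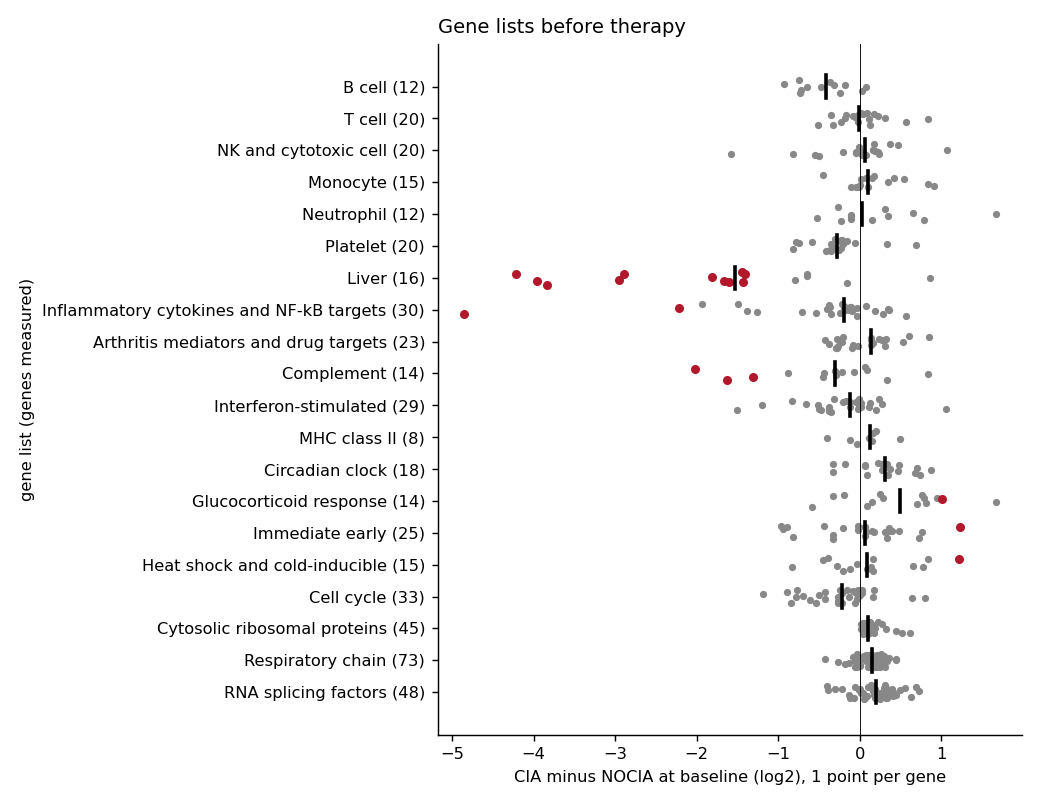
Difference between CIA_B and NOCIA_B (horizontal axis, log2) of each measured gene in selected gene lists (vertical axis, with the number measured), 1 point per gene and a mark at the median. Of the lists plotted, Liver, with a median of -1.53, lies farthest from 0, followed on the lower side by B cell (-0.42) and on the higher side by glucocorticoid response (0.49).

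The position of the 4 arrays among all 24 was also described. Both NOCIA_B arrays lay above all other 22 arrays at 530 probe sets (2.56%) and below all of them at 320 (1.55%). Both CIA_B arrays did so at 107 (0.517%) and 55 (0.266%). Most of the other arrays were of arthritic groups, so NOCIA_B and CIA_B were not placed on equal terms. The counts therefore cannot show which group was unusual. Among the 87 probe sets higher in CIA_B, NOCIA_B was the lowest of all arrays in 34 (39.1%) and CIA_B the highest in 0. Among the 66 lower ones, NOCIA_B was the highest in 14 (21.2%) and CIA_B the lowest in 1. These shares use the arrays that chose the probe sets and are a description.

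With a gap of more than 0.25 to the nearest other array, and counting probe sets with 1 gene symbol, NOCIA_B stood above in 35 and below in 33, and CIA_B in 0 and 0. Above were Sik1 by 3.13, Cr2 by 0.98, the phosphatase regulator Ppp1r10 by 0.59, Tlr8 by 0.54 and Egr1 by 0.37. Below were Traf6 by 1.21, Cks2 by 0.72, Nr4a3 by 0.69, Rybp by 0.59 and Dctn6 by 0.54.

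Healthy rats sampled later in the study lay closer to the arthritic baseline. Both NOCIA_E arrays lay beyond both NOCIA_B arrays on the side of CIA_B in 85 of the 87 higher probe sets and 47 of the 66 lower ones, and both NOCIA_A arrays in 85 and 60. Over all probe sets the shares were 31.6% at 1 hour and 49.8% at 34 days. At 34 days the healthy arrays even lay beyond both CIA_B arrays in 70 of the 87 (80.5%) and 22 of the 66 (33.3%), against 33.6% of all probe sets. Nr4a3 was at 8.11 and 7.42 in NOCIA_A, above 5.86 and 5.98 in CIA_B, and Rup2 at 4.10 and 3.38, below 5.09 and 4.46. Since NOCIA_B chose these probe sets, values of other healthy arrays nearer to CIA_B are given as a description.

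An independent set of rats gave the difference between arthritis and health 34 days later. There, PLA_A and ANE_A, 4 arrays of arthritic rats with no active therapy, were set against 2 NOCIA_A arrays. limma called 260 probe sets higher (1.26%) and 501 lower (2.42%) in arthritis, counts that fell to 5 in all without NOCIA_A replicate 1 and 124 without replicate 2. Of the 87 probe sets higher at baseline, 83 lay lower in arthritis at 34 days, 18 of them called, and 1 was called higher. Their median difference at 34 days was -0.85. Of the 66 lower ones 53 lay higher, 2 of them called, with a median of 0.31. Over all probe sets 54.7% lay higher and 45.3% lower.

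Named genes followed that order. All 20 named genes of the higher side had a negative difference at 34 days, and 5 were called lower then: Traf6 (-1.42, adjusted p = 0.0482), Mbip (-1.64, 0.0203), Rybp (-1.44, 0.0361), Dctn6 (-1.18, 0.00839) and Jun (-1.86, 0.0267). Jun was at 11.38 and 11.13 in NOCIA_A, 9.89 and 9.58 in PLA_A and 8.93 and 9.16 in ANE_A. Dctn6 was at 7.86 and 7.18 in NOCIA_A, 7.003 and 6.61 in PLA_A and 5.81 and 5.93 in ANE_A. In both genes every arthritic array lay below both healthy ones. Cxcl1 was at 8.24 and 8.03 in NOCIA_A and between 8.86 and 10.22 in the 4 arthritic arrays, a difference of 1.42 ± 0.89 that was not called.

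The difference between the baseline and the 34-day contrast was itself tested. It was called at 290 probe sets (1.4%), and in 288 of them the contrasts had opposite signs. The baseline difference was the more positive in 218. The commonest pattern, in 216, was arthritis above health at baseline and below it at 34 days. The count rested on each of the 4 baseline arrays, falling to 6 and 3 without NOCIA_B replicate 1 or 2 and to 4 and 5 without CIA_B replicate 1 or 2, and to 7 without NOCIA_A replicate 1. Of the 153 probe sets past the study's thresholds, 49 were called in this test.

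B cell genes turned with the others. At 34 days the B cell list had a median of 0.57 in arthritis against health, with 3 genes called higher and 0 lower. Pou2af1 was at 7.07 and 7.37 in NOCIA_A and differed by 1.39 then, against -0.72 at baseline. The list's level was above both NOCIA_B arrays in 0 of the 20 arrays outside the comparison, and the NOCIA_A arrays were among the 19 below both.

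At 1 hour limma made 0 calls between arthritic rats (PLA_E and ANE_E) and healthy rats (NOCIA_E), with 1135 probe sets at an unadjusted p of 0.05. Without ANE_E replicate 1 or 2 there were 6 and 32 calls, and without the 4 arrays that stood apart 127. Of the 87 higher probe sets 30 lay higher at 1 hour and of the 66 lower ones 40 lay higher, so signs at baseline did not carry over to most probe sets. The saline injection and the other anaesthetic are part of these arms, and their share in the difference cannot be told apart.

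**Figure D5:**
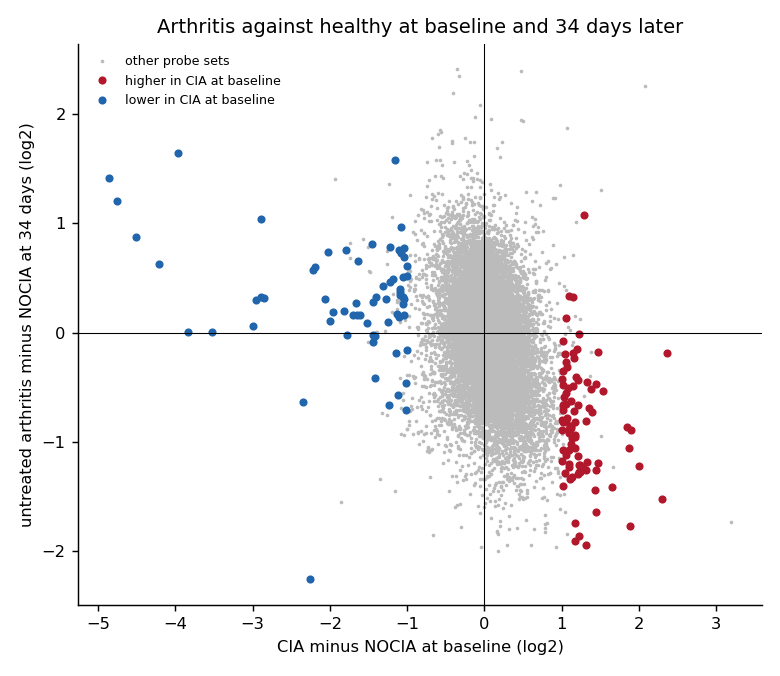
Difference between arthritic and healthy rats at 34 days (vertical axis, log2) against the difference at baseline (horizontal axis, log2), 1 point per probe set kept, with the probe sets past the study's thresholds at baseline in colour. Of the 87 to the right, 83 lie below 0, and of the 66 to the left 53 lie above 0.

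Promoters of the genes past the study's thresholds were searched for the sites of signal-responsive factors, since Sik1, Crem, Nr4a3 and Jun are induced by such signals. RefSeq (GRCr8) gave the 250 bases before the start for 46 of 55 higher and 28 of 35 lower genes. Nr4a3, Jun, Traf6, Rybp and Dctn6 were among the genes without a promoter there and were not searched. TGACG, the core of the cAMP response element, was found on either strand in 13 higher genes (28.3%) and 5 lower genes (17.9%), against 28% of measured genes and 19% of all promoters. The full element TGACGTCA, which contains that core, was in 1 and 0 genes against 2.92% of measured genes, and the E-box CACGTG, to which clock factors bind, in 4 (8.7%) and 0 against 8.32%. The AP-1 site TGANTCA was in 2 higher (4.35%) and 4 lower genes (14.3%) against 4.57%. The higher genes were close to the background for every motif. The stretches around the match nearest to the start are shown for 4 genes whose values are given above, 5′ to 3′ on the gene's strand, with the core or its reverse complement in capitals.
Sik1, chr20:9958810-9958838, minus strand: gcgtcaaaacgaCGTCAatgggctgtgcc
Cxcl1, chr14:17479512-17479540, minus strand: tccagcgaagcgCGTCActcccttccctc
Crem, chr17:58934048-58934065, plus strand: ctgcaatcccgcTGACGg
Klf9, chr1:230126555-230126583, plus strand: gggcctggattgTGACGtgatgggattct
The matches begin 180, 207, 6 and 79 bases before the start. Sik1 and Cxcl1, which lay lower in CIA_B, and Crem and Klf9, which lay higher, all hold the core, and Sik1, Cxcl1 and Crem hold it at 2 places.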

How the data were processed

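The deposited values are log2 expression levels per probe set, made by the authors, per the labels, by RMA (robust multi-array average, which corrects background, quantile-normalizes and summarizes probes) in the affy package, versions not stated. Quantile normalization gives the arrays like distributions, so a shift of most transcripts would not show. The study's methods name MAS5 too. The deposited levels ran from 2.18 to 15.02, with array medians of 5.49 to 5.58, and were taken as RMA values without detection calls. Arrays have no read depth, and 2 arrays a group limit the precision.

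Of 31099 probe sets, 57 controls were dropped and 20690 kept, namely those that exceeded an array's 40th percentile on 2 or more arrays. Genes are named from the 15234 kept probe sets with 1 symbol in the platform annotation (11057 genes). A list uses the probe set of a gene with the highest mean over all arrays. limma 3.58.1 (R 4.3.3) fitted a coefficient per group over all 24 arrays (12 residual degrees of freedom), with Benjamini-Hochberg adjustment over all probe sets kept, and a probe set was called at an adjusted p below 0.05. The baseline contrast was CIA_B minus NOCIA_B. Contrasts at 34 days and 1 hour were the mean of PLA and ANE minus NOCIA. p-values measure the spread between the arrays of a group, pooled over the groups of a fit. The steps were tested on simulated data. Python 3.11.15 with pandas 2.3.3 was used for tables and matplotlib 3.10.9 for plots.

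Named genes were every called probe set with 1 symbol, the 20 highest and 20 lowest genes past the study's thresholds with groups that do not overlap (each at its probe set of largest difference), and members of the gene lists. Ppp1r10 was named after its values were seen. The comparison, the gene lists and the named members were chosen with earlier results of these data known, and the tissue macrophage and chemokine lists were added after values were seen, so list counts are descriptions and no list was tested. A mean centred level is the mean over a list's genes of the log2 value minus that gene's mean over the 24 arrays. Above and below, of a list, mean that both CIA_B arrays lay above or below both NOCIA_B arrays. Of all genes 29.6% lay above and 22.9% below.

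Each result was recomputed with a replicate block, from the compared groups alone, without the filter, with the filter raised to the 60th percentile, after a further quantile normalization, with limma-trend and robust eBayes, with array weights and leaving out each array. List medians were also taken over gene means of several probe sets. After seeing the data, 4 outlying arrays (MS_A 1, MS_E 1, ANE_E 1 and PLA_E 2) were left out in an added fit. Promoters came from RefSeq (GRCr8), and RefSeq coordinates are used for nothing else.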

Additional observations from a re-analysis of the deposited data

Results flagged for a closer look

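The difference between arthritic and healthy rats was not the same at baseline and 34 days later. In limma the baseline difference minus the 34-day difference was called at 290 probe sets, and the baseline difference minus the 1-hour difference at 1, that of Sik1. The 290 fell to between 3 and 7 when any of the 4 baseline arrays or NOCIA_A replicate 1 was left out. Genes were named from the baseline difference, so only their 34-day or 1-hour values are free of that choice. Groups of 2 arrays are too small for a test of single outlying arrays.

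Among genes that lay higher at baseline, the difference of differences was 3.22 ± 0.66 (SE) for Nr4a3, 3.06 ± 0.57 for Traf6, 2.66 ± 0.59 for Btg3, 3.08 ± 0.53 for Mbip, 2.87 ± 0.54 for Rybp and 2.51 ± 0.31 for Dctn6. It was 2.51 ± 0.51 for Cdadc1, 2.45 ± 0.50 for Nr1d2, 3.08 ± 0.65 for Jun and 1.96 ± 0.32 for Cks2. In each the arthritic rats lay above the healthy ones at baseline and below them at 34 days. Adjusted p-values in limma ran from 0.00369 for Dctn6 to 0.0400 for Btg3.

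Among genes that lay lower at baseline, it was -6.27 ± 1.36 for Cxcl1, -2.55 ± 0.46 for Cr2 and -2.11 ± 0.37 for Pou2af1, whose differences at 34 days were positive (1.42, 0.76 and 1.39). For Sik1 it was -3.53 ± 0.26 against 34 days and -3.54 ± 0.26 against 1 hour, since its later differences were 0.00 and 0.01.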

How the results depend on the processing

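Probe sets called at baseline numbered 1 in the fit as reported, 2 with no filter, 2 under quantile normalization, 1020 with array weights, 759 with only the groups compared and 258 without the 4 arrays that stood apart (1 to 2 leaving out each array). Those past the study's thresholds numbered 153, from 124 to 217 under the other settings and 94 to 158 leaving out each array. For the 34-day contrast 761 became 1326 under quantile normalization, 5032 with array weights, 4305 with only the groups compared and 4460 without the 4 arrays (5 to 402 leaving out each array). For the 1-hour contrast 0 became 127 without the 4 arrays (0 to 32). For baseline minus 34 days 290 became 688, 4675, 4146 and 3327 under the same 4 settings (3 to 153), and for baseline minus 1 hour 1 became 24 with array weights and 54 without the 4 arrays (1 to 34). The cause of these changes was not tested; where an arm kept 1 array, that array was taken to vary like the other groups.

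Deviations of same-numbered arrays correlated by -0.0187 between the baseline groups. Over all 66 pairs of groups the correlation ran from -0.756 to 0.805 and was over 0.1 in 25. These values cannot show whether the replicate numbers pair the arrays, and the fit as reported used no pairing. With a replicate block the counts were 1, 157, 689, 0, 245 and 1, in the order above, and no count moved by more than 1.5 times. Of 964 recomputed differences of 81 genes, 785 kept their direction and their side of the threshold, 179 passed it in addition, and 0 lost a call or reversed. Only Sik1 was called in the fit as reported, so no other gene could lose a call. Several settings change the error but not the difference, so no reversal was possible there. Many of the genes were chosen for large differences, and these counts are no test of robustness. Of 519 list medians 74 moved by more than the spread between arrays, and 29 changed sign, in 16 of 40 lists, of which 4 (Erythroid, arthritis mediators, interferon-stimulated and MHC class II) had medians over 0.1 in size.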
